A study of Mus musculus with 8 samples.

Results

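The NF-κB pathway was followed through 10 genes in 3T3-L1 cells, a clonal mouse fibroblast line that can be turned into fat cells in culture. The genes were given by symbol and matched to the Ensembl identifiers of the count file: the transcription factor subunits Nfkb1, Nfkb2 and Relb, the inhibitors Nfkbia and Tnfaip3, the survival gene Birc3, the adhesion molecules Icam1 and Vcam1, and the receptors Tlr2 and Cd14. All 10 were among the 49585 genes of the file, and 9 of them were among the 15255 genes with enough counts to be tested. The exception was Icam1. RNA from day 7 gave 4 groups of 2 libraries. Cells were grown flat in dishes (2D) or as spheroids in hanging drops (3D, near 20000 cells per drop of 28 µL), and in each format were left uninduced or were induced toward fat cells. Induction meant troglitazone (10 µM) with insulin (1 µg/ml) throughout the 7 days, and dexamethasone (250 nM) with triiodothyronine (10 nM) in the first 2 days only. All 4 groups shared a high-glucose medium with calf serum and methylcellulose.

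NF-κB is a family of paired transcription factors held in the cytoplasm by IκB proteins. Signals from Toll-like, interleukin or tumour necrosis factor receptors activate a kinase that marks IκB for destruction, and the freed factor enters the nucleus and binds κB sites. Several of its targets, among them Nfkbia and Tnfaip3, code for proteins that switch the pathway off again. In adipose tissue the pathway is known for its part in inflammation and in reduced insulin responses. RNA levels measure the genes of the pathway and not the nuclear factor itself.

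Library totals ran from 11839374 to 21169390 counts. The fibroblast markers Col1a1, Col3a1, Pdgfra, Pdgfrb, Thy1, Dlk1 and S100a4 were detected in all 8 libraries. Their sum was 26770 and 27530 CPM (counts scaled to library size with TMM factors) in uninduced and 16750 and 16260 in induced flat libraries. In spheroid libraries it was 9902 and 11290 CPM uninduced and 12820 and 4720 CPM induced. Col1a1, Col3a1 and Dlk1 made up most of the sum (means of 8546, 12670 and 4406 CPM in uninduced flat libraries). Of the 7, 2 were called lower in each spheroid comparison, beside 4.02% (uninduced) and 5.46% (induced) of all genes. In each, 5 of the 7 had estimates below 0 and 2 above. Those above were Pdgfrb (means of 366.1 CPM in uninduced flat and 438.6 in uninduced spheroid libraries) and S100a4 (8.06 and 9.63). The part of these markers in the results below was not tested. The 7 adipocyte markers summed to 85.4 to 120.8 CPM in uninduced and 1108 to 5864 CPM in induced libraries. The 2 induced spheroid libraries were unlike each other, with a 2-fold or larger difference in 14.2% of tested genes, where the pairs of the remaining groups had 2.49 to 3.68%. For the 9 members the median difference between replicates was 0.34 log2 there and 0.07 to 0.11 in the remaining groups, and in no group did a member differ 2-fold. Its replicate 2 also had the highest sum of 5 noncoding or RNA quality transcripts (13090 CPM against 2762 in replicate 1, and 1919 to 4317 elsewhere). The labels do not say whether the 2 samples of a group came from separate cultures, so each p-value reflects only the spread among these samples, which may be technical. In bulk RNA, fewer cells of a type and less RNA per cell cannot be told apart.

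Promoter sequence is shown because NF-κB acts through κB sites near the genes it controls. RefSeq windows (GRCm38.p6, from 250 bases before to 50 after a start site) matched 6 of the 10 genes, with 9 windows in all. In 7 of the 9 windows, those of Nfkb2, Nfkbia, Icam1, Tlr2 and 1 of the 2 of Tnfaip3, at least 1 of 3 motifs was found, against 9.57% of all 32851 windows. The motifs were the κB consensus (4.51% of all windows), GGNNTTTCC (5.82%) and GGAANTTCC (0.928%), each searched on both strands, and they overlap one another. The 250 bases before the start site are printed for 5 genes, 5′ to 3′ on the strand of the gene, with every matched base in capitals.
Nfkbia, chr12:55492648-55492897, minus strand: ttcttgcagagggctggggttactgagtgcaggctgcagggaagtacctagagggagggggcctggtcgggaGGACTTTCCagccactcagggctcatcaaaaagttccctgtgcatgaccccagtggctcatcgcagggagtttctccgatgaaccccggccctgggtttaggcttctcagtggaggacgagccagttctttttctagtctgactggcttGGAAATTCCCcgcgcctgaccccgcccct
Tnfaip3, chr10:19015411-19015660, minus strand: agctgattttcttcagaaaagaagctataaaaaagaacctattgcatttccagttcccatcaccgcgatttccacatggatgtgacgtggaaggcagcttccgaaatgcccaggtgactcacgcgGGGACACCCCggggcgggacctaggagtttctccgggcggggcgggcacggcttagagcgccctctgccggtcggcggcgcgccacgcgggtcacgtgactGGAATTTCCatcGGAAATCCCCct
Nfkb2, chr19:46304487-46304736, plus strand: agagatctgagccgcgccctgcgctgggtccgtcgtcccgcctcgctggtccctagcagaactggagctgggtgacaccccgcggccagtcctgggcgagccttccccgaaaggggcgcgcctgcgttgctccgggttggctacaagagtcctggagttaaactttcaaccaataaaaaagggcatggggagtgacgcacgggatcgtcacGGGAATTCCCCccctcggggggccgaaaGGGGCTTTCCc
Icam1, chr9:21015690-21015939, plus strand: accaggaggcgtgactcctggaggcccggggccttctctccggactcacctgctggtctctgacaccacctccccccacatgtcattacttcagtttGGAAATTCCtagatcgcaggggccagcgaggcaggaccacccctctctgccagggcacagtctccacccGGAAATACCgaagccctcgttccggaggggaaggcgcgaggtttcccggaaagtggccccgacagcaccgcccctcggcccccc
Tlr2, chr3:83841609-83841858, minus strand: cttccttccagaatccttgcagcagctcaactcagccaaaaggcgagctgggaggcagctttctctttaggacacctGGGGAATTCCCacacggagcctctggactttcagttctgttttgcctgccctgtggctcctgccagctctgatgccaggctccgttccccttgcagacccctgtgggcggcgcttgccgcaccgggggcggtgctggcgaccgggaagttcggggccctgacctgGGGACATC
The Nfkbia window had a κB consensus match at -29 to -20 from its start site, and the Tnfaip3 window had matches at -125 to -116 and -12 to -3. Nfkb2 had overlapping matches within -39 to -29 and another at -11 to -2. Tlr2 had overlapping matches within -173 to -163 and another at -8 to 2, whose last bases lie beyond the printed stretch. Icam1 had no match to the consensus but had GGAANTTCC at -153 to -145. The Birc3 window had none of the 3 motifs. Nfkb2 held 3 of the 7 windows with a match, and 2 of these overlap and share a κB consensus match. The genes were picked as NF-κB genes, so their share of windows with a match is no test. These matches are letters in a window and do not show binding.

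Nfkb1 (ENSMUSG00000028163, GRCm38/mm10 in GENCODE vM21, chromosome 3 from 135584655 to 135691547) and Nfkb2 (ENSMUSG00000025225, chromosome 19 from 46304320 to 46312385) code for precursors that are processed into DNA-binding subunits. Nfkb1 was measured at 89.5 and 85.0 CPM in uninduced and 53.7 and 65.7 in induced flat libraries, and 116.2 and 118.2 in uninduced and 97.8 and 99.8 CPM in induced spheroid libraries. The 4 groups did not overlap, with flat induced cultures lowest and uninduced spheroids highest. Nfkb2 was measured at 129.9 and 131.1 CPM in uninduced and 90.7 and 89.96 in induced flat libraries, and 168.8 and 169.8 in uninduced and 151.5 and 128.9 CPM in induced spheroid libraries. Its order was like that of Nfkb1, but the induced spheroids overlapped the uninduced flat cultures. Psd overlaps Nfkb2 on the opposite strand and had 249 to 883 counts per library against 1015 to 2610 for Nfkb2, and the strand setting of the counting is not given in the sources used here.

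Relb (ENSMUSG00000002983, chromosome 7 from 19606217 to 19629438) codes for the subunit that pairs with the processed Nfkb2 product in the non-canonical branch. Its levels were 26.8 and 28.2 CPM in uninduced and 22.1 and 22.7 in induced flat libraries, and 42.2 and 39.3 in uninduced and 39.2 and 31.2 CPM in induced spheroid libraries. All 4 spheroid libraries were above all 4 flat libraries, and the spheroid groups nearly met, at 39.3 and 39.2 CPM.

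Nfkbia (ENSMUSG00000021025, chromosome 12 from 55489410 to 55492647) codes for IκBα, which holds NF-κB in the cytoplasm. It was measured at 35.3 and 34.8 CPM in uninduced and 41.5 and 41.0 in induced flat libraries, and 64.5 and 77.1 in uninduced and 67.0 and 94.9 CPM in induced spheroid libraries. The spheroid libraries were all above the flat ones, and the 2 spheroid groups overlapped. Tnfaip3 (ENSMUSG00000019850, chromosome 10 from 19000910 to 19015657) codes for A20, a ubiquitin-editing enzyme that shuts down signalling from the receptors. It was measured at 10.3 and 8.89 CPM in uninduced and 14.5 and 15.3 in induced flat libraries, and 16.5 and 19.1 in uninduced and 14.7 and 18.1 CPM in induced spheroid libraries. The uninduced flat libraries were below all others, and the induced spheroids overlapped both of the remaining groups.

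Tlr2 (ENSMUSG00000027995, chromosome 3 from 83836272 to 83841767) codes for a Toll-like receptor that senses bacterial lipoproteins. Its levels were 43.5 and 43.6 CPM in uninduced and 23.6 and 26.9 in induced flat libraries, and 59.8 and 74.7 in uninduced and 32.0 and 25.3 CPM in induced spheroid libraries. Both induced groups were below both uninduced groups, and the induced groups overlapped. Cd14 (ENSMUSG00000051439) codes for the co-receptor that passes lipopolysaccharide and other ligands to Toll-like receptors. Its levels were 10.95 and 9.20 CPM in uninduced and 6.79 and 5.46 in induced flat libraries, and 43.5 and 47.1 in uninduced and 14.4 and 28.6 CPM in induced spheroid libraries. Here no groups overlapped, and replicates of the induced spheroids differed by 0.99 on the log2 scale.

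Birc3 (ENSMUSG00000032000, chromosome 9 from 7848699 to 7873186) codes for an inhibitor-of-apoptosis ubiquitin ligase that is both a part and a target of the pathway. It was measured at 25.8 and 22.6 CPM in uninduced and 16.4 and 19.7 in induced flat libraries, and 28.3 and 26.4 in uninduced and 23.3 and 13.9 CPM in induced spheroid libraries. Vcam1 (ENSMUSG00000027962, chromosome 3 from 116109949 to 116129688) codes for an adhesion molecule that binds leukocyte integrins. It was measured at 293.5 and 285.2 CPM in uninduced and 190.2 and 188.8 in induced flat libraries, and 291.5 and 321.0 in uninduced and 241.4 and 124.3 CPM in induced spheroid libraries. For Vcam1 both induced groups were below both uninduced groups, while for Birc3 the induced spheroids overlapped the uninduced flat cultures. For both genes 3D induced replicate 2 was the lowest of all 8 libraries. The opposite-strand gene Gm43109 overlaps Vcam1 and had 165 to 445 counts per library against 2124 to 5897 for Vcam1.

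Icam1 (ENSMUSG00000037405, chromosome 9 from 21015985 to 21028817), an adhesion molecule often used as a readout of NF-κB, was at the limit of detection. It had 4 counts over both 2D uninduced libraries, 0 over the 2D induced, 4 over the 3D uninduced and 11 over the 3D induced libraries, 9 of the 11 in replicate 1. The count of 0 allows a level of up to 0.118 CPM (3 counts over the group), a limit that covers counting error only. Gm47079 overlaps Icam1 on the opposite strand and had 5 to 25 counts per library. No change of Icam1 was detectable at this depth.

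**Figure D1:**
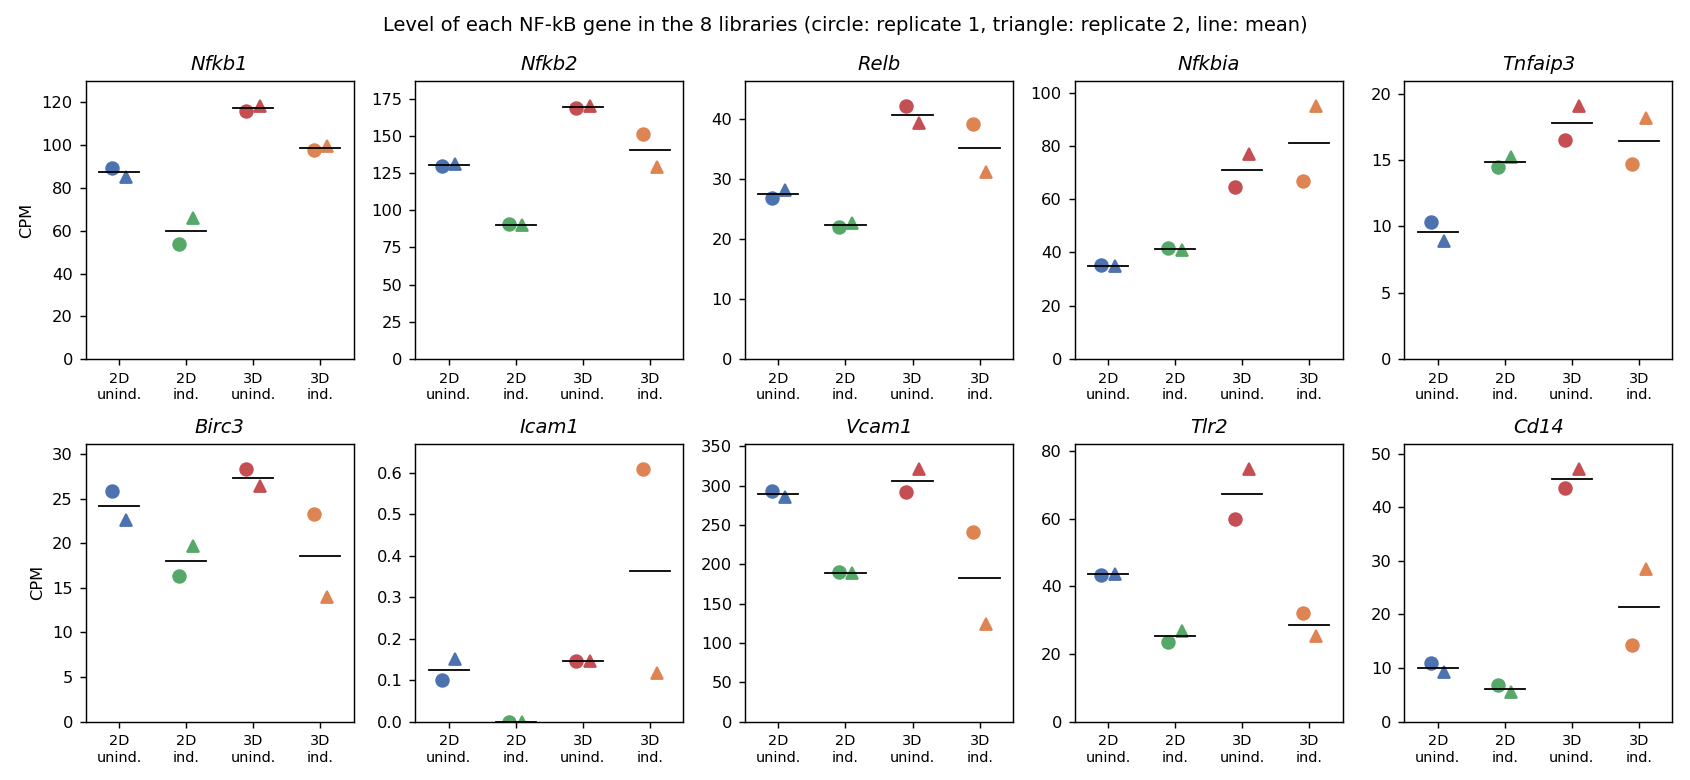
Level of each of the 10 genes in CPM on axes that start at 0, by group, with circles for replicate 1, triangles for replicate 2 and a line at the mean of the 2. Cd14 has its highest levels in the uninduced spheroids (43.5 and 47.1 CPM), Tlr2 is low in both induced groups, and Icam1 stays under 1 CPM in every library.

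Levels of different genes were compared per length, as CPM per kb of merged exons, a length that counts every annotated isoform (1.61 kb for Nfkbia, 12.1 kb for Nfkb1) and so lowers genes with long alternative exons. In uninduced flat cultures the order by mean ± SD (n = 2) was Vcam1 (32.6 ± 0.664 CPM per kb), Nfkb2 (28.5 ± 0.19), Nfkbia (21.8 ± 0.206), Tlr2 (14.5 ± 0.0318), Nfkb1 (7.23 ± 0.263), Relb (7.08 ± 0.247), Cd14 (5.82 ± 0.717), Birc3 (4.84 ± 0.455), Tnfaip3 (1.33 ± 0.138) and Icam1 (0.0287 ± 0.0083). Nfkb1 and Relb overlapped there, while the other neighbours in the order did not, Cd14 (5.31 and 6.32 CPM per kb) and Birc3 (4.51 and 5.16 CPM per kb) being close. In uninduced spheroids Nfkbia led with 44.0 ± 5.55 CPM per kb, followed by Nfkb2 (36.9 ± 0.155) and Vcam1 (34.5 ± 2.36), and Cd14 came next at 26.2 ± 1.48 CPM per kb, above Tlr2 (22.3 ± 3.49). Nfkbia also led in induced flat cultures (25.6 ± 0.228 CPM per kb) and induced spheroids (50.3 ± 12.2 CPM per kb), and Tnfaip3 was the lowest tested gene in all 4 groups.

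**Figure D2:**
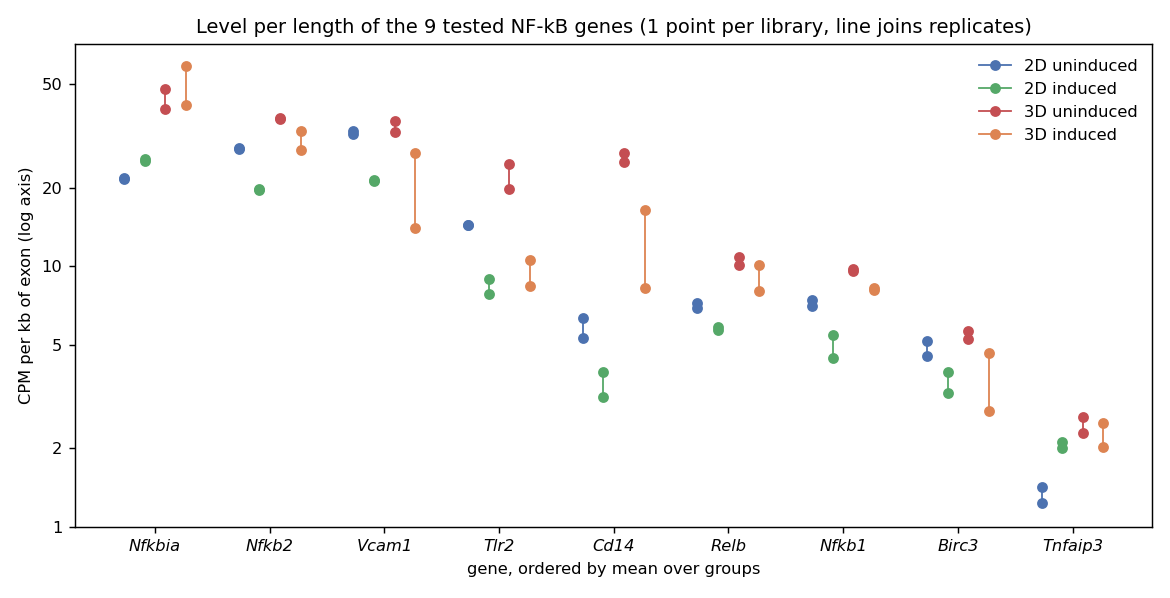
Level per length (CPM per kb of exon, log axis) of the 9 tested genes, with 1 point per library and a line joining replicates of a group. Nfkbia, Nfkb2 and Vcam1 have the highest means over groups and Tnfaip3 the lowest, and Cd14 is at 5.82 CPM per kb in uninduced flat cultures and 26.2 in uninduced spheroids.

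Induction in flat culture, which asks what the adipogenic mixture does to cells in a dish, gave estimates within 2-fold for all 9 tested genes. To be called, a gene needed both a 2-fold or larger change and an adjusted p below 0.05 from edgeR's quasi-likelihood test. By that rule 0 of 9 tested genes were called, beside 4.52% of all genes tested. At an unadjusted p under 0.05 there were 5, with Tnfaip3 higher among them. The share of all genes at that threshold was not computed, so the 5 are not read further. DESeq2 and limma-voom with group weights also called 0. By adjusted p alone, 3 of the 9 were lower, where 2.97% of all genes were: Tlr2 (-0.79 ± 0.17 log2, adjusted p = 0.0280), Nfkb1 (-0.55 ± 0.12, adjusted p = 0.0309) and Nfkb2 (-0.53 ± 0.11, adjusted p = 0.0245). Each was lower in 2 of 2 induced libraries, as were 34.5% of all genes tested. The inhibitors had positive estimates, 0.63 ± 0.18 for Tnfaip3 (adjusted p = 0.0745) and 0.24 ± 0.18 for Nfkbia (adjusted p = 0.478), and the median of the 9 was -0.53 log2 against 0 over all genes. The count by adjusted p alone depended on which libraries set the spread: it was 0 without any 1 of the 4 flat libraries, 7 lower and 1 higher without either 3D induced library, and 7 lower and 2 higher in the 4 flat libraries alone and with limma-voom group weights.

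In induced spheroids 1 of the 9 tested genes fell, beside 0.328% of all genes called lower and 0.911% either way. Tlr2 fell by 1.23 on the log2 scale (SE 0.17, adjusted p = 0.0176). Both induced libraries were below both uninduced ones, as in 14.6% of all genes tested. The call did not hold without any 1 of the flat libraries, induced or uninduced, or without either uninduced spheroid library. It also did not hold in the 4 spheroid libraries alone (adjusted p = 0.303). Cd14 had an estimate of -1.08 ± 0.29 (adjusted p = 0.149). It was called with DESeq2 (-1.10, adjusted p = 0.0201) and when 3D induced replicate 2 was left out (-1.66, adjusted p = 9.91e-06), and was at -0.66 when replicate 1 was. Vcam1 was at -0.74 ± 0.26 (adjusted p = 0.280), and Birc3 at -0.56 ± 0.24 (adjusted p = 0.398). Birc3 was at -0.97 (adjusted p = 3.11e-04) when 3D induced replicate 1 was left out and at -0.23 when replicate 2 was. Without 3D induced replicate 1, Vcam1 was called at -1.30 (adjusted p = 8.94e-08), and without replicate 2 it was at -0.35 (adjusted p = 0.0146). The median of the 9 was -0.27 log2 against 0.04 over all genes.

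Spheroid culture without induction asks what the 3D format alone does. In it 2 of 9 tested genes rose, beside 5.42% of all genes called higher, 4.02% lower and 9.44% either way. Cd14 rose by 2.16 ± 0.31 log2 (adjusted p = 0.00351). Both spheroid libraries were above both flat ones, as in 38.1% of all genes tested. This call of Cd14 held without each library in turn (2.03 to 2.28 log2) and under each other alternative. Nfkbia rose by 1.01 ± 0.18 (adjusted p = 0.00774), at the 2-fold limit. That call did not hold with DESeq2's size factors (1.00, just below the limit), without any 1 of the 4 flat libraries or without 3D uninduced replicate 2 (0.87). By adjusted p alone 7 of 9 were higher, where 10.9% of all genes were. Besides these, they were Tnfaip3 (0.89 ± 0.18, adjusted p = 0.0133), Tlr2 (0.63 ± 0.16, adjusted p = 0.0326), Relb (0.57 ± 0.14, adjusted p = 0.0280), Nfkb1 (0.42 ± 0.12, adjusted p = 0.0405) and Nfkb2 (0.38 ± 0.11, adjusted p = 0.0449). Birc3 (0.17 ± 0.24) and Vcam1 (0.08 ± 0.26) were near 0. Leaving out either 2D uninduced library, or replicate 2 of the uninduced spheroids, reduced the 7 to 1; leaving out replicate 1 of the uninduced spheroids gave 2, and either 2D induced library 3.

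Between induced spheroids and induced flat cultures 1 of 9 genes was called, beside 6.94% of all genes called higher, 5.46% lower and 12.4% either way. Cd14 was higher by 1.82 ± 0.32 log2 (adjusted p = 0.00612). Both spheroid libraries were above both flat ones, as in 31.9% of all genes tested. The Cd14 estimate was 1.24 when 3D induced replicate 2 was left out and 2.24 when replicate 1 was. The call did not hold without 2D induced replicate 2 (adjusted p = 0.0672) or in the 4 induced libraries alone (adjusted p = 0.0561). By adjusted p alone 5 of 9 were higher, where 14.7% of all genes were: Cd14, Nfkbia (0.97 ± 0.18, adjusted p = 0.00678), Nfkb1 (0.73 ± 0.12, adjusted p = 0.00480), Relb (0.65 ± 0.14, adjusted p = 0.0141) and Nfkb2 (0.63 ± 0.11, adjusted p = 0.00556). That count was 1 without either 2D induced library and 0 in the 4 induced libraries alone. Tlr2 (0.18 ± 0.17), Tnfaip3 (0.14 ± 0.18), Birc3 (0.04 ± 0.24) and Vcam1 (-0.05 ± 0.26) were near 0. The estimate for Vcam1 turned on single libraries, being 0.35 when 3D induced replicate 2 was left out and -0.60 when replicate 1 was. The adipocyte markers also differed, and summed to 5385 and 5864 CPM in flat and 1108 and 2118 CPM in spheroid induced libraries, and their part in these differences was not tested.

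The response to induction was also compared between the 2 formats. For the interaction, 0 of 9 genes were called by edgeR, beside 0.38% of all genes (0.387% by adjusted p alone), and DESeq2 and limma-voom with group weights called 0 as well. At an unadjusted p under 0.05 there was 1, Tnfaip3, at -0.74 ± 0.25 log2 (adjusted p = 0.480). The share of all genes at that threshold was not computed. Tlr2 was at -0.45 ± 0.23, Cd14 at -0.35 ± 0.44, Nfkb1 at 0.30 ± 0.17 and Nfkb2 at 0.26 ± 0.15.

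**Figure D3:**
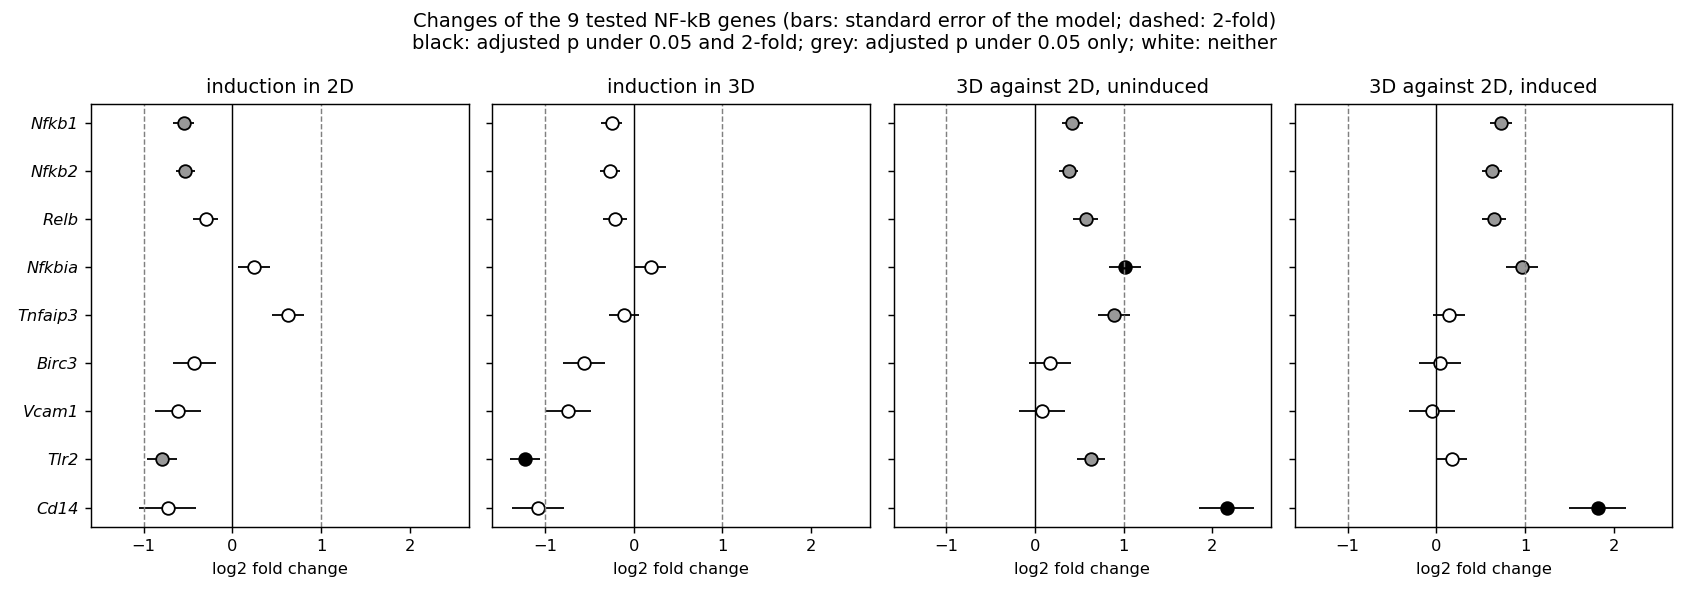
Log2 fold changes of the 9 tested genes with the standard error of the model, in 4 panels for the 2 inductions and the 2 spheroid against flat comparisons, with dashed lines at 2-fold. Black points passed adjusted p and 2-fold (Tlr2 in 3D induction, Nfkbia and Cd14 in uninduced and Cd14 in induced spheroids against flat cultures), grey points passed adjusted p alone and white points neither.

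The other genes of the pathway were described from 6 lists with 109 genes, of which 87 were tested. In uninduced spheroids against flat cultures 23 were called higher and 1 lower (27.6% of the 87), where 9.44% of all genes were called. The counts were 20 and 1 in the induced comparison (24.1%, beside 12.4% of all genes), 2 and 8 for induction in 2D (11.5%, beside 4.52%) and 0 and 5 for induction in 3D (5.75%, beside 0.911%). The 23 became 11 and 12 without 2D uninduced replicate 1 or 2 and 14 or 15 without either 3D uninduced library. The 20 became 11 and 9 without 2D induced replicate 1 or 2 and 10 in the 4 induced libraries alone. The lower calls became fewer for induction in 2D without any 1 of the flat libraries. For induction in 3D they became fewer without any 1 of the 6 libraries outside the induced spheroids. Without either induced spheroid library they became more. Among 6 tested subunits and inhibitors, 2 rose in uninduced spheroids, where 5.42% of all genes were called higher. Nfkbiz, a nuclear IκB protein that helps switch on secondary response genes, rose by 2.95 ± 0.24 (adjusted p = 5.81e-04), from 7.22 and 8.89 to 58.8 and 64.9 CPM. Bcl3, another nuclear IκB protein, rose by 1.18 ± 0.27 (adjusted p = 0.0217), a call lost without any 1 of the 6 libraries outside the induced spheroids. Nfkbiz was also called in induced spheroids against flat cultures (2.70 ± 0.24, adjusted p = 6.55e-04). Nfkbie, the gene of IκBε, fell by 1.09 with induction in 2D (adjusted p = 0.0371), also lost without any 1 of those 6. Rela, the main activating subunit and the most abundant gene of the list, lay between 57.2 and 118.4 CPM and was not called, with 0.47 in uninduced (adjusted p = 0.0738) and 0.77 log2 in induced spheroids (adjusted p = 0.0115).

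Of 27 tested kinases and adaptors, 1 was called higher in each spheroid comparison, a share near the 5.42% and 6.94% of all genes called higher, and 0 were called in either induction or the interaction, where 4.52%, 0.911% and 0.38% of all genes were. It was the adaptor Traf1, at 3.34 ± 0.50 (adjusted p = 0.00426) uninduced and 2.53 ± 0.56 (adjusted p = 0.0147) induced. Traf1 had 11 and 6 counts in 2D uninduced and 70 and 72 in 3D uninduced libraries. Its first call was lost without either 2D uninduced library, and its second without 2D induced replicate 2 and in the 4 induced libraries alone. Irak1 was the most abundant of this list, with a mean of 119.5 CPM. Of 10 tested negative regulators, 2 rose in each spheroid comparison, beside the same shares of all genes: the RNase Zc3h12a, which degrades cytokine transcripts (2.20 ± 0.19 uninduced, adjusted p = 6.77e-04), and the A20-binding protein Tnip3 (3.10 ± 0.28, adjusted p = 7.46e-04). Tnip3 also fell with induction, by 2.20 in 2D (adjusted p = 0.0177) and by 1.81 in 3D (adjusted p = 0.0200). The first of these calls was lost without any 1 of the 4 flat libraries, and the second without any 1 of the 6 libraries outside the induced spheroids, with limma-voom group weights and in the 4 spheroid libraries alone. The autophagy adaptor Tax1bp1 was the most abundant of this list, at 297.8 to 386 CPM.

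Of 12 tested receptors, 2 rose in uninduced spheroids, beside 5.42% of all genes: the TWEAK receptor Tnfrsf12a (2.17 ± 0.57, adjusted p = 0.0337) and the interleukin-33 receptor Il1rl1 (2.72 ± 0.67, adjusted p = 0.0273). Tnfrsf12a was also higher in induced spheroids (2.65 ± 0.58, adjusted p = 0.0141), where its 2 libraries held 79.3 and 347 CPM, a call lost without either 2D induced library. The interleukin-1 co-receptor Il1rap fell by 1.06 with induction in 3D (adjusted p = 0.0175), a call lost in the same settings as that of Tnip3 in 3D. Tnfrsf1a, the main tumour necrosis factor receptor, was the most abundant, at 220.9 to 353.4 CPM. Of 13 listed ligands only 5 were tested: Il1a rose in uninduced spheroids (3.34 ± 0.89, adjusted p = 0.0350, from 6 and 0 counts to 13 and 37), and Il33 fell by 2.95 in 2D induction (adjusted p = 0.0223, from 43 and 37 counts to 2 and 6). Tnf had 0 or 1 and Il1b 0 to 3 counts per library, and Hmgb1 was the most abundant ligand (mean 103.3 CPM). The calls of Il1a, Il33 and Il1rl1, and that of Tnfrsf12a in uninduced spheroids, were each lost without any 1 of the 6 libraries outside the induced spheroids.

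Target genes had the most calls of the 6 lists. Of 27 tested targets (5 of 32 listed had too few counts), 15 were higher and 1 lower in uninduced spheroids, 55.6% higher where 5.42% of all genes were, with a list median of 1.31 log2 against 0.03. In induced spheroids against flat cultures the counts were again 15 and 1, with a median of 1.96. Of these targets 13 were called higher in both comparisons. The overlap among all genes called higher was not computed, so the 13 are not read as a trait of the targets. The list was chosen with earlier results of these data known. Some targets called higher passed the count filter only through spheroid libraries. Nos2 had 1 count over the 2D uninduced and 0 over the 2D induced libraries, against 95 and 25 in 3D. The same counts were 11 and 3 against 100 and 42 for Il6, and 23 and 9 against 237 and 101 for Lif. Traf1 and Il1a, in the lists above, passed in the same way. The filter all but fixed the direction of such calls, so they are no support for the share. Increases in uninduced spheroids ran from 1.12 (the antioxidant enzyme Sod2) to 6.91 log2 (the acute-phase protein Saa3). Saa3 was at 10.5 and 10.6 CPM in uninduced and 6.52 and 7.84 in induced flat libraries, and 1212 and 1309 in uninduced and 231.8 and 199.1 CPM in induced spheroid libraries. The iron-scavenging protein Lcn2 rose by 5.90 ± 0.36 (adjusted p = 1.68e-04) and the cytokine Lif by 3.65 ± 0.28 (adjusted p = 3.99e-04). The collagenase Mmp13 was 2.84 ± 0.15 higher in induced spheroids (adjusted p = 9.48e-05). The single decrease in both comparisons was Ptx3, a secreted pattern-recognition protein (-2.13 and -1.51), and the complement gene C3 was the most abundant target, with a mean of 2323 CPM.

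Without either 2D uninduced library, 8 and 9 targets were higher in uninduced spheroids, and without 2D induced replicate 1 or 2, 7 and 6 in induced spheroids, as in the 4 induced libraries alone (7). Induction in 2D gave 2 higher targets, among them Lcn2 (3.74 ± 0.35, adjusted p = 8.51e-04), and 5 lower ones, beside 3.17% of all genes higher and 1.34% lower. Mmp13 fell by 1.42 (adjusted p = 0.00147), and the other 4 were Ccl2, Cxcl5, Mmp3 and Plau. The 5 lower calls were 1 or 2 without any 1 of the 4 flat libraries. Induction in 3D gave 3 lower targets, Saa3 (-2.55 ± 0.13, adjusted p = 4.21e-04), the chemokine Cxcl5 (-1.96 ± 0.23, adjusted p = 0.0126) and Lif (-1.45 ± 0.24, adjusted p = 0.0324), beside 0.328% of all genes called lower. That count was 9 without either 3D induced library, 1 or 2 without any 1 of the others, 1 with limma-voom group weights and 0 in the 4 spheroid libraries alone.

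**Figure D4:**
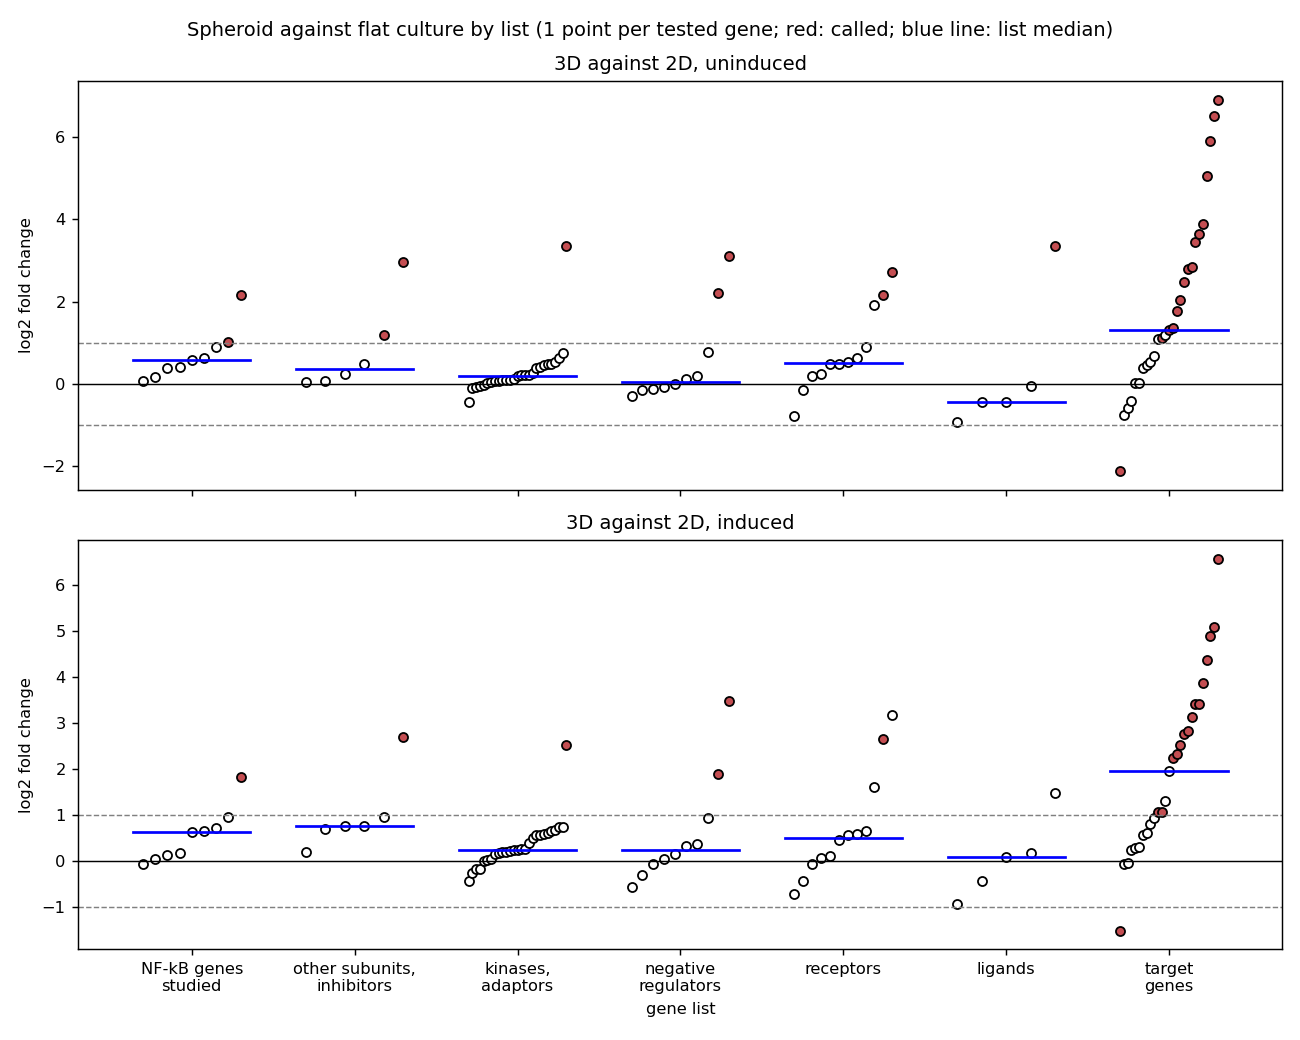
Log2 fold change of each tested gene in spheroid against flat cultures, uninduced above and induced below, by list, with called genes in red, list medians as blue lines and dashed lines at 2-fold. Target genes reach 6.91 log2 (Saa3) uninduced, while all kinases and adaptors but Traf1 lie within 2-fold.

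Cd14 and Tlr2 are also expressed by macrophages, and Vcam1 and Icam1 by activated endothelium, so markers of both were read in the same libraries. Of 10 macrophage markers, Ptprc, Adgre1 and Tyrobp were at 0 in all 8 libraries, Itgam had 0 to 2 counts per library, and the whole list summed to 12.2 to 18.6 CPM in flat and 16.9 to 29.0 CPM in spheroid libraries. Csf1r had 85 to 240 counts per library and was not called. Of the list 5 were tested. In induced spheroids Cd68 (3.66 ± 0.61, adjusted p = 0.00498) and Cd163 (2.61 ± 0.70, adjusted p = 0.0282) were called higher, beside 6.94% of all genes. Lyz2 was called lower in both spheroid comparisons (-2.75 and -2.64), beside 4.02% (uninduced) and 5.46% (induced) of all genes. Of 7 endothelial markers, 3 were tested, Tie1 was at 0 in all libraries and the list summed to 0.804 to 5.16 CPM. In uninduced spheroids Vwf was called higher (1.59 ± 0.44) and Tek lower, beside 5.42% and 4.02% of all genes. Tek had 29 counts over the 2D uninduced libraries and 0 over both the 2D induced and the 3D uninduced ones. With induction in 2D 1 of the 3 was also called lower, beside 1.34% of all genes. Of the 5 noncoding or RNA quality transcripts, 3 were called higher in each spheroid comparison, beside 5.42% (uninduced) and 6.94% (induced) of all genes. They were Neat1 (3.10 ± 0.10 log2 uninduced and 3.54 ± 0.11 induced), Malat1 (161.5 and 167.2 against 758.7 and 651.9 CPM uninduced, and 2.59 ± 0.13 log2 higher induced) and Gm26917 (3.74 ± 1.05 and 6.05 ± 1.18). Gm26917 was at 362.6 and 6396 CPM in the 2 induced spheroid libraries. The part of these transcripts in the changes above was not tested.

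Genes whose profile over the 8 libraries lay nearest to a member were taken by the root mean square difference of centred log2 CPM among 11103 genes. For Nfkb1 they were Llgl2 (0.0441) and Mast2 (0.0718), for Nfkb2 Foxp4 (0.0564) and Aldh16a1 (0.0661), and for Relb Zfp26 (0.0524) and Hdac6 (0.0601). Nfkbia was nearest to Pom121 (0.0964) and Trim47 (0.101), and Tnfaip3 to Klhl2 (0.0948) and Adarb1 (0.103). Birc3 was nearest to Uggt2 (0.102) and Elavl2 (0.116), and Vcam1 to Zfp827 (0.0873) and Abi3bp (0.102). Cd14 was nearest to the chemokine Ccl7 (0.242) and to Dlx2 (0.255), and Tlr2 to Plekho1 (0.161) and Fsd1 (0.201), the widest distances of the 9. No member was among the 2 genes nearest to another. With 11103 genes compared, this says little about whether the members share a profile.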

How the data were processed

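The data are RNA sequencing counts of 8 libraries. The authors deposited 1 table of raw read counts per Ensembl gene with no normalization, as its whole numbers show. The submitters' processing notes name featureCounts 1.6.3, HISAT2 2.1.0, Trimmomatic 0.38, FastQC 0.11.7 and the mm10 build. The kit was directional, per the labels' protocols. The annotation release is not given in the sources used here, nor is the strand setting. Columns were joined to samples by their descriptions, with replicate numbers from the titles.

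Symbols came from GENCODE vM21 (49326 of 49585 genes matched). Genes were filtered with filterByExpr (minimum count 10), scaled by TMM and tested across all genes with edgeR 4.0.16's quasi-likelihood fit (R 4.3.3, robust, 1 mean per group, 4 residual degrees of freedom), two-sided, with Benjamini-Hochberg adjustment over 15255 genes, in 5 comparisons. SE is the size of the log2 fold change over the square root of F. The fit was also run on simulated data, but the outcome is not reported here, so that run says nothing about the calls above. At these depths 1 CPM stands for 11.8 to 21.2 counts before scaling.

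The members and lists were chosen with earlier results of these data known. Named were all members and, per list and comparison, up to 3 called genes with the smallest adjusted p, the most abundant gene, plus the 2 nearest profiles per member. Ptx3, Sod2, Ccl2, Mmp3, Plau, Nos2, Il6, Tnf, Il1b and the single marker genes were named after their values were seen. The values of 1 called target are not reported here. Alternatives used DESeq2 1.42.0, limma 3.58.1, other scaling, no filter, the compared groups alone, a replicate block and leaving out each library.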

Additional observations from a re-analysis of the deposited data

Results flagged for a closer look

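No member of the pathway set passed the test for a different response to induction in flat and spheroid culture, and 3 target genes did. Each was picked out because the change with induction in 3D differed from that in 2D (edgeR interaction, adjusted p under 0.05 and at least 2-fold). For Lcn2 the difference was -4.81 ± 0.44 log2 (adjusted p = 0.0109): it rose by 3.74 in 2D, and was at 104.4 and 182.1 CPM in uninduced against 56.0 and 79.9 CPM in induced spheroids. For Saa3 it was -2.01 ± 0.20 (adjusted p = 0.0131), with a decrease of -2.55 in 3D and an estimate of -0.54 in 2D. For Mmp13 it was 1.53 ± 0.20 (adjusted p = 0.0299). The mean level of Mmp13 was 32.8 CPM in 2D uninduced libraries, against 12.5 and 12.0 CPM in the 2D induced ones. In spheroids its mean was 81.1 ± 14.3 CPM (SD) uninduced, against 85.1 and 90.5 CPM induced. The calls of all 3 were lost without any 1 of the 4 flat libraries, those of Saa3 and Mmp13 also without either 3D uninduced library, and that of Mmp13 also with the replicate block.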

How the results depend on the processing

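With 2 libraries per group and 1 shared spread per gene, most counts of calls depended on single libraries. By adjusted p alone, members past the threshold numbered 3 (2D induction), 7 (3D against 2D, uninduced) and 5 (induced), against 0, 2 and 1 called. With no low-count filter and with DESeq2, 2 members were called for induction in 3D (Tlr2 and Cd14) and 1 in uninduced spheroids against flat cultures, where DESeq2's size factors also gave 1. In the compared groups alone, 0 were called for induction in 3D and 0 in the induced spheroid comparison. Leaving out 1 library gave 0 for induction in 2D and for the interaction each time, 0 to 2 for induction in 3D, 1 to 2 for uninduced and 0 to 2 for induced spheroids against flat cultures. Replicate numbers came from the titles. The column names number the 2D uninduced libraries 2 and 3 and those of the other groups 1 and 2. Which libraries belong together across groups is therefore not known. Deviations of libraries with the same title number correlated at 0.206 between the 2 spheroid groups and at -0.006 to 0.027 otherwise. These values cannot show whether libraries shared a batch. With the replicate block, by title number, the counts of members called were 0, 1, 2, 1 and 0 in the 5 comparisons, as without it. By adjusted p alone the block left 5 of the 7 members in uninduced spheroids against flat cultures, Nfkb1 (adjusted p = 0.0538) and Nfkb2 (adjusted p = 0.0605) being lost. Recounting by adjusted p alone under each alternative was chosen after seeing the data. Signs turned only for uncalled estimates. Birc3 in induced spheroids against flat cultures went to -0.03 with limma-voom group weights and was between -0.37 and 0.36 over the left-out libraries. Over left-out libraries Vcam1 in that comparison was between -0.60 and 0.35, and Tnfaip3 between -0.02 and 0.29. Induction in 3D gave -0.08 to 0.43 for Nfkbia and -0.28 to 0.03 for Tnfaip3. The interaction gave -0.08 to 0.24 for Relb, -0.31 to 0.20 for Nfkbia, -0.54 to 0.20 for Birc3, -0.68 to 0.27 for Vcam1 and -0.91 to 0.09 for Cd14. The cause of these changes was not tested.

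Counts over all genes moved too. Without 1 library the total called ranged from 225 to 1169 for induction in 2D (689 with all libraries), 24 to 1225 for induction in 3D (139), 552 to 2170 for uninduced spheroids against flat cultures (1440), 871 to 3025 for induced ones (1892) and 1 to 686 for the interaction (58). In the compared groups alone these totals were 1213 and 0 for the inductions and 825 for induced spheroids against flat cultures. Limma-voom group weights gave 1348 for induction in 2D, 88 in 3D and 107 for the interaction. With DESeq2 the totals were 242 for induction in 3D and 163 for the interaction, and with no filter 336 and 209. By adjusted p alone they were 1354, 208, 3215 and 4379 in the first 4 comparisons. In their lowest groups Traf1, Tnip3, Il1a and Il33 had 0 to 7 counts per library, where depth limits the fold changes. The same limit holds in the 2D induced group for Nos2, Il6 and Lif (0, 3 and 9 counts over its libraries).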
